A study of Mus musculus with 18 samples.

Results

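A set of 9 genes that regulate cranial mesoderm and the muscles formed from it was followed through an allelic series of Tbx1 in whole mouse embryos at embryonic day 9.5. The genes were Tcf21, Msc, Lhx2, Myf5, Myod1, Met, Ebf1, Ebf2 and Ebf3, listed by symbol with earlier results of these data known, and every probe set that carried only the symbol of 1 of them was read. They made up 9 of the 18193 genes and 20 of the 45037 probe sets measured. Each of 18 Affymetrix arrays held the RNA of 1 whole embryo, and each of 9 genotypes had 2 embryos. In 5 genotypes there was no wild-type Tbx1 allele: -/-, homozygous for the null allele; Neo/Neo; Neo2/-; Neo2/Neo; and Neo2/Neo2. Neo and Neo2 are known from the study's background, not from its labels, as hypomorphic alleles, meant to keep part of the gene's function. The 3 heterozygous genotypes, +/-, Neo/+ and Neo2/+, had 1 wild-type allele, and WT embryos had 2. All embryos came from a background of 129SvEv mixed with C57Bl/6, and the alleles were present in all cells of the embryo.

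The muscles of the jaw, face and larynx, called branchiomeric muscles, form from unsegmented cranial mesoderm that fills the core of the pharyngeal arches, and not from somites as trunk and limb muscles do. In that mesoderm Tbx1, a T-box transcription factor, acts with Tcf21, Msc and Lhx2 ahead of the myogenic factors Myf5 and Myod1. Met is the receptor of hepatocyte growth factor and guides migrating muscle precursors, and in the sea squirt Ciona an Ebf factor acts downstream of the Tbx1 orthologue in pharyngeal muscle precursors. Several of these genes are also used elsewhere in the embryo: Ebf genes in newly formed neurons, Lhx2 in the forebrain and optic vesicle, Tcf21 in visceral mesoderm and Met in the liver bud. In RNA of a whole embryo, fewer cells of a type and less RNA per cell cannot be told apart.

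The values are log2 signals, and a signal was compared only within a probe set. A single probe set carried the Tbx1 symbol, and its signal was 4.98 and 5.16 in -/-, 5.04 and 5.20 in Neo/Neo, 5.61 and 5.81 in Neo2/-, 5.65 and 5.67 in Neo2/Neo and 6.62 and 6.62 in Neo2/Neo2 embryos. It was 6.61 and 6.13 in +/-, 6.35 and 6.24 in Neo/+, 6.59 and 6.50 in Neo2/+ and 6.54 and 6.63 in WT embryos. The arrays labelled Neo2/Neo2 were thus at the WT level and above Neo2/Neo and Neo2/-, and those labelled Neo/Neo were at the -/- level, so neither homozygote had an intermediate signal. Tbx1 fell by 1.36 in Neo/Neo and -/- relative to the 4 genotypes with a wild-type allele (SE 0.09, n = 4 against 8, limma adjusted p = 4.18e-05). The sources used here do not say whether this probe set lies inside or outside the sequence that the null allele lacks.

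Array medians were 5.73 to 5.94. The first +/- array and the first -/- array stood apart, with a median correlation with the other arrays of 0.975 and 0.985, against 0.991 to 0.995 for the remaining 16. By sex, the -/- and WT pairs were female, the Neo/Neo and Neo2/Neo2 pairs male, and each remaining genotype mixed.

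None of the 9 genes passed the test against the Tbx1 signal. None passed the test of the genotypes with the least Tbx1 against the carriers of a wild-type allele. The slope of each gene on the Tbx1 signal was fitted with limma over the 18 arrays, with p adjusted over all probe sets and a call at an adjusted p under 0.05. It called 0 of the 9 genes and 0 of their 20 probe sets, and the background was 0% of 45036 probe sets, while 1 of the 9 genes and 8.74% of probe sets had an unadjusted p under 0.05. The slopes of the 9 genes ran from -0.20 to 0.03 log2 units per log2 unit of Tbx1, with a median of -0.07, against 0.01 for all probe sets. For Neo/Neo and -/- against carriers of a wild-type allele limma called 0 of the 9, with 0.00666% of probe sets called, and 0 of the 9 had an unadjusted p under 0.05, against 8.32% of probe sets. The median difference of the 9 genes was 0.03, against -0.01 for all probe sets.

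**Figure D1:**
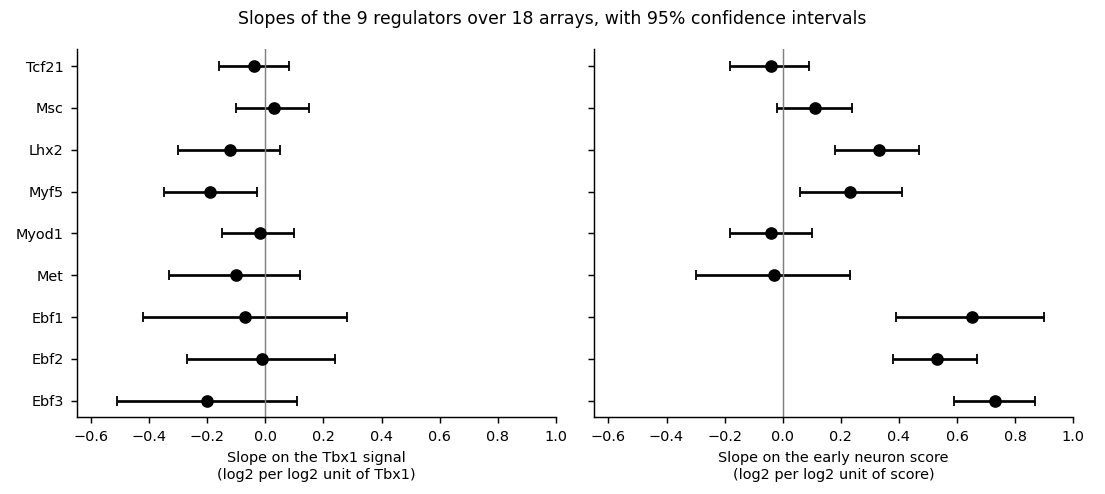
Slopes of the 9 genes (points) with 95% confidence intervals (bars) over 18 arrays, in log2 units per log2 unit of the Tbx1 signal (left) and per log2 unit of the mean deviation of 12 early neuron genes (right). On the left the points lie between -0.20 and 0.03 and the interval of Myf5 alone leaves out 0, while on the right Lhx2, Ebf1, Ebf2 and Ebf3 lie between 0.33 and 0.73.

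Among the 3 early regulators of the arch mesoderm, Tcf21 and Msc varied least across the genotypes. Tcf21, a bHLH factor of the arch mesoderm core, lay between 7.73 and 7.91 in the 4 Neo/Neo and -/- embryos, against 7.40 to 7.99 in the 8 carriers of a wild-type allele, so the range of the first group fell inside that of the second. The difference was 0.09 (95% interval -0.09 to 0.28, limma adjusted p = 0.754). Its second probe set was dim, at 3.60 to 4.33, and did not follow the first (r = 0.04 over 18 arrays). The order of the genotype means ran from Neo/+ at 7.93 down to WT at 7.59, and no neighbours in that order were apart in their embryos. The ends of the order were apart, with 7.99 and 7.87 in Neo/+ against 7.40 and 7.79 in WT embryos (difference 0.34, limma adjusted p = 0.645).

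Msc, the bHLH factor musculin that acts redundantly with Tcf21 in jaw muscle precursors, was at 5.97 to 6.32 in Neo/Neo and -/- embryos, against 6.04 to 6.49 in the carriers. The groups overlapped, with a difference of -0.12 (95% interval -0.30 to 0.07, adjusted p = 0.697). The WT mean was the highest of the 9 genotypes at 6.35 ± 0.20, and the Neo2/Neo2 mean was the lowest at 6.01 ± 0.03 (SD, n = 2 each). Msc on the Tbx1 signal had a slope of 0.03 (95% interval -0.10 to 0.15).

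Lhx2, a LIM homeobox factor of pharyngeal mesoderm and of the eye and forebrain, was at 8.0 and 8.07 in -/-, 8.36 and 8.19 in Neo/Neo, 8.37 and 8.03 in Neo2/-, 8.39 and 8.45 in Neo2/Neo and 7.54 and 7.89 in Neo2/Neo2 embryos. It was 8.16 and 7.80 in +/-, 8.15 and 8.21 in Neo/+, 8.27 and 8.29 in Neo2/+ and 7.95 and 8.16 in WT embryos. Both Neo2/Neo embryos were above every other embryo, and 1 Neo2/Neo2 embryo was below every other. Lhx2 differed by 0.03 between Neo/Neo and -/- and the carriers (95% interval -0.17 to 0.24, adjusted p = 0.932).

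Myf5, the first myogenic factor expressed in the arches and somites, was at 6.40 and 6.14 in -/-, 6.10 and 6.37 in Neo/Neo, 6.32 and 6.31 in Neo2/-, 6.35 and 6.44 in Neo2/Neo and 5.59 and 5.88 in Neo2/Neo2 embryos. It was 6.32 and 6.22 in +/-, 6.48 and 6.08 in Neo/+, 6.02 and 6.14 in Neo2/+ and 6.04 and 5.99 in WT embryos. The Neo2/Neo2 embryos were the lowest of all, and both WT embryos were below both embryos of -/-, Neo/Neo, Neo2/- and Neo2/Neo, the genotypes with a low Tbx1 signal. They were also below both embryos of +/- and Neo/+, which carry a wild-type allele. Its slope on Tbx1 had the smallest p of the 9 genes, at -0.19 (SE 0.08, 95% interval -0.35 to -0.03, unadjusted p = 0.0238, adjusted p = 0.558), so a lower Tbx1 signal went with a higher Myf5 signal without passing the test. Between embryos of 1 genotype the Myf5 slope on Tbx1, also uncalled, had the opposite sign. The embryos of 1 genotype that differed most in Tbx1 were the +/- pair, at 6.61 and 6.13, and the first of these arrays stood apart. Neo/Neo and -/- against the carriers gave 0.09 (95% interval -0.10 to 0.29).

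Myod1, the myogenic factor that commits precursors to muscle, had a low signal, at 4.78 to 5.21 in Neo/Neo and -/- embryos, against 4.64 to 5.03 in the carriers. The groups overlapped, with a difference of 0.07 (95% interval -0.10 to 0.24, adjusted p = 0.802). Its brighter probe set stood above 39.1% of all probe sets by mean signal and its other probe set, at 2.56 to 3.14, above 1.2%, and without a detection call such signals cannot be told from background.

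Met was at 6.96 to 7.25 in Neo/Neo and -/- embryos, against 6.00 to 7.27 in the carriers. The 6.00 came from the first +/- array, 1 of the 2 that stood apart, and the second +/- embryo had 6.96, so that the remaining 17 arrays lay between 6.96 and 7.35. The difference of +/- from WT was -0.55 (SE 0.22, 95% interval -1.03 to -0.08, adjusted p = 0.415), and without the first +/- array Neo/Neo and -/- against the carriers gave 0.05. The other Met probe set did not follow the first (r = -0.15) and had its lowest value, 4.88, and its highest, 5.75, in the 2 WT embryos.

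**Figure D2:**
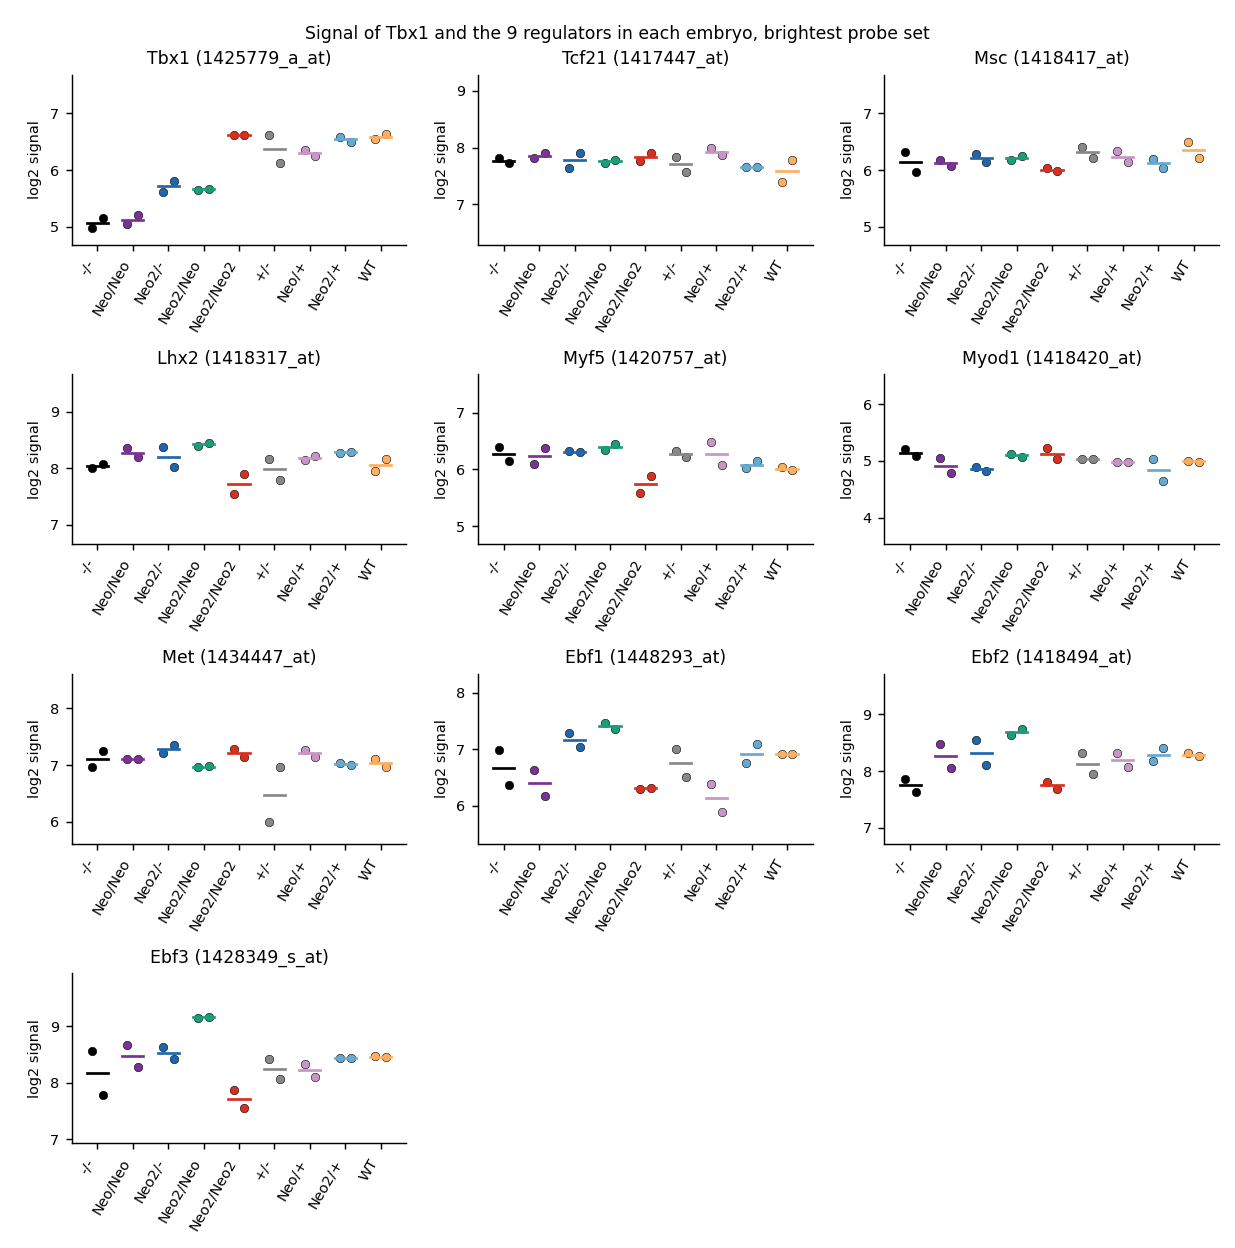
Log2 signal of Tbx1 and of the brightest probe set of each of the 9 genes in every embryo (points), with the genotype mean (lines), in 9 genotypes of 2 embryos each, from -/- on the left to WT on the right. The panels of the 9 genes share 1 height of axis: Tcf21, Msc and Myod1 lie nearly flat, and Ebf3 is highest in both Neo2/Neo embryos at 9.15 and 9.17.

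The Ebf genes, which encode helix-loop-helix transcription factors of the COE family, had a wider range across the series than Tcf21, Msc or Myod1. The ranges were 1.59 for Ebf1, 1.11 for Ebf2 and 1.62 for Ebf3, against 0.60, 0.52 and 0.59 log2 units for those 3 genes. Lhx2 had 0.91 and Myf5 0.88, and Met had 1.34 with its low value on the first +/- array included. The promoters of Ebf3, Ebf1 and Lhx2 are shown because these genes were highest together in Neo2/Neo embryos, and that of Myf5 because its slope on Tbx1 had the smallest p. Each is the 250 bases before and the 50 after a RefSeq transcription start (GRCm38.p6), 5′ to 3′ on the gene's strand, and capitals mark matches to 3 motifs searched on both strands: the T-box half-site GGTGTGA or its reverse complement TCACACC, the E-box CANNTG and the EBF site CCCNNGGG. The windows are chr7:137314396-137314695 on the minus strand for Ebf3, chr11:44619978-44620277 on the plus strand for Ebf1, chr2:38351058-38351357 on the plus strand for Lhx2 and chr10:107486085-107486384 on the minus strand for Myf5. For Ebf1 and Lhx2, which have 2 listed starts each, the downstream start is shown.
Ebf3: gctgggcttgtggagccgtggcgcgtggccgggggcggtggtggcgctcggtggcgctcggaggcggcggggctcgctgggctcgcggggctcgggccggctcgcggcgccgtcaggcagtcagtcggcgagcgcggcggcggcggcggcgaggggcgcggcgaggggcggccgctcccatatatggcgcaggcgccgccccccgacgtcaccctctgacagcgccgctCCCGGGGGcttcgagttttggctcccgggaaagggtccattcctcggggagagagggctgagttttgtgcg
Ebf1: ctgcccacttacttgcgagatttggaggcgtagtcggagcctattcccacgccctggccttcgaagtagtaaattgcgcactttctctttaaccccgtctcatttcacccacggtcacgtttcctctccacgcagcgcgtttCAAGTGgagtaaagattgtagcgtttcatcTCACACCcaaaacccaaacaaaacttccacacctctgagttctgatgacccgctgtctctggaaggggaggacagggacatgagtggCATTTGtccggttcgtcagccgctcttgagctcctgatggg
Lhx2: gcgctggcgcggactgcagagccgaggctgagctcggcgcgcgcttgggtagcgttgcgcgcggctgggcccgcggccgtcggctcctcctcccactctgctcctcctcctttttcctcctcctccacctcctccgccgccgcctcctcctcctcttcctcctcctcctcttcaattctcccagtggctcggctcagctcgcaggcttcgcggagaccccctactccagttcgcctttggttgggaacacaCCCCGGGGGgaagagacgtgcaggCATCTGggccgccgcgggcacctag
Myf5: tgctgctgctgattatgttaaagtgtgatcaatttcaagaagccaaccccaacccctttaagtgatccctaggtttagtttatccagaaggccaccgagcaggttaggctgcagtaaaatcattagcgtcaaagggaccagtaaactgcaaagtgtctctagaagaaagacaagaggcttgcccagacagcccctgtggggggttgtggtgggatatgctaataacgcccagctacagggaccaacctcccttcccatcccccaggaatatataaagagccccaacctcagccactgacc

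The Ebf3 promoter held 1 EBF match, with its first base at -21 from the start. The Ebf1 promoter held 1 T-box match, at -78, and 2 E-boxes. The Lhx2 promoter held 2 EBF matches that overlap by all but 1 base and 1 E-box, and the Myf5 promoter held no match. Among 32851 mouse promoters of that length 3.98% held the T-box half-site, 72.3% an E-box and 13.7% an EBF site. The upstream starts of Ebf1 and Lhx2 had no match, the Met promoter had 2 E-boxes, and the Tcf21 promoter had 1 EBF match, at -66. The table used gave promoters for 6 of the 9 genes. A match describes the letters in this window and is not evidence of binding.

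Ebf3 was at 8.57 and 7.78 in -/-, 8.66 and 8.28 in Neo/Neo, 8.63 and 8.42 in Neo2/-, 9.15 and 9.17 in Neo2/Neo and 7.87 and 7.56 in Neo2/Neo2 embryos. It was 8.42 and 8.07 in +/-, 8.33 and 8.11 in Neo/+, 8.44 and 8.44 in Neo2/+ and 8.47 and 8.45 in WT embryos. Both Neo2/Neo embryos were above all others and 1 Neo2/Neo2 embryo below all others, while the 2 -/- embryos differed from each other by more than the WT, Neo2/+ or Neo2/Neo pairs did. Neo2/Neo exceeded WT by 0.70 (SE 0.22, 1.62-fold, 95% interval 0.22 to 1.18, limma adjusted p = 0.612), and Neo2/Neo2 differed from WT by -0.75 (SE 0.22, 95% interval -1.23 to -0.27, adjusted p = 0.244).

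Ebf2 was at 7.86 and 7.63 in -/-, 8.48 and 8.05 in Neo/Neo, 8.55 and 8.10 in Neo2/-, 8.63 and 8.74 in Neo2/Neo and 7.81 and 7.69 in Neo2/Neo2 embryos. It was 8.31 and 7.94 in +/-, 8.32 and 8.07 in Neo/+, 8.17 and 8.41 in Neo2/+ and 8.31 and 8.26 in WT embryos. At this probe set the -/- and Neo2/Neo2 embryos were the 4 lowest and the Neo2/Neo embryos the highest. At the 2 other Ebf2 probe sets the Neo2/Neo embryos were again highest, but the first -/- embryo, at 7.33 and 7.0, was not among the lowest, with WT embryos at 7.21 and 7.31 and at 6.88 and 7.06. The difference from WT was -0.54 in -/- (SE 0.19, 95% interval -0.95 to -0.14, adjusted p = 0.213) and -0.54 in Neo2/Neo2 (SE 0.19, adjusted p = 0.300), and it was 0.40 in Neo2/Neo (95% interval -0.01 to 0.80, adjusted p = 0.747). The -/- difference was smaller at the other probe sets, at -0.33 (95% interval -0.77 to 0.12) and -0.23 (95% interval -0.60 to 0.14).

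Ebf1, read at the brightest of its 5 probe sets, was at 6.99 and 6.36 in -/-, 6.63 and 6.17 in Neo/Neo, 7.29 and 7.03 in Neo2/-, 7.47 and 7.35 in Neo2/Neo and 6.30 and 6.32 in Neo2/Neo2 embryos. It was 7.01 and 6.51 in +/-, 6.39 and 5.89 in Neo/+, 6.75 and 7.09 in Neo2/+ and 6.92 and 6.91 in WT embryos. Neo2/Neo was again highest, but the lowest embryo was a Neo/+ embryo. Ebf1 in Neo/+ differed from WT by -0.78 (SE 0.24, 0.58-fold, 95% interval -1.30 to -0.26, adjusted p = 0.483). Neo/Neo and -/- against the other genotypes with no wild-type allele gave -0.42 (95% interval -0.76 to -0.09, adjusted p = 0.673). At the next 3 probe sets in brightness that comparison gave -0.21, -0.06 and -0.22, each with a 95% interval that includes 0. Neo/+ against WT was -0.13 at the second brightest. The brightest probe set departed from these in the Neo/Neo and Neo/+ arrays, as described below.

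In each comparison of the 9 genotype means limma called 0 of the 9 genes. The test of any difference between genotypes (moderated F) called 0.275% of all probe sets, and 5 of the 9 genes had an unadjusted p under 0.05, against 13.7% of probe sets: Ebf3 (F = 6.04, adjusted p = 0.149), Ebf1 (F = 5.88, adjusted p = 0.153), Ebf2 (F = 4.94, adjusted p = 0.199), Myf5 (F = 3.71, adjusted p = 0.277) and Lhx2 (F = 3.65, adjusted p = 0.280). The median F of the 9 genes was 3.65, against 1.36 for all probe sets. These calls shifted with the arrays used: 4 of the 9 genes (Met, Ebf1, Ebf2 and Ebf3) were called without the second +/- embryo, 2 (Ebf1 and Ebf3) without the second -/- embryo and 1 (Ebf3) without the first -/- embryo, and those fits called 10.6%, 6.77% and 1.06% of all probe sets. Without both arrays that stood apart Ebf1 and Ebf3 were called, with 2.77% of all probe sets.

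Against WT, which all of the following comparisons share, the 9 genes had 0 calls in every mutant genotype. The share of all probe sets called was 0.0311% in -/-, 0.0822% in Neo/Neo, 0.00222% in Neo2/-, in Neo2/Neo and in Neo2/Neo2, 0% in +/-, 0.0311% in Neo/+ and 0% in Neo2/+. Neo2/Neo2 had the most genes with an unadjusted p under 0.05, at 5 of 9 against 11.6% of probe sets, and the values were -0.75 for Ebf3, -0.60 for Ebf1, -0.54 for Ebf2, -0.35 for Msc and -0.33 for Lhx2. Neo2/Neo had 3 of 9 against 6.72%, with 0.70 for Ebf3, 0.38 for Myf5 and 0.37 for Lhx2. The -/- genotype had 1 of 9 (Ebf2) against 15.1%, and +/- had 1 of 9 (Met) against 11.7%, shares near those of all probe sets. Neo/+ had 2 of 9 (Ebf1, at its brightest probe set alone, and, at 0.34, Tcf21) against 7.36%. Neo/Neo, Neo2/- and Neo2/+ had 0 of 9 each, against 7.01%, 6.28% and 6.51%.

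In the other groupings the 9 genes also had 0 calls. Genotypes with 0 against 1 or 2 wild-type alleles (n = 10 against 8) called 0.00666% of probe sets and gave 0 of 9 genes an unadjusted p under 0.05, against 6.76% of probe sets, with differences between -0.11 for Msc and 0.20 for Met. Neo/Neo and -/- against the other genotypes with no wild-type allele (n = 4 against 6) called 0.0133%. It gave 1 of 9 at an unadjusted p under 0.05, Ebf1 at its brightest probe set alone, against 7.04% of probe sets. Whether the effect of a Neo allele differed beside Neo and beside a wild-type allele had 0% called. It had 1 of 9 at an unadjusted p under 0.05, Ebf1 at its brightest probe set alone (1.04, SE 0.42, adjusted p = 0.998), against 4.61% of probe sets. The same question for the null allele beside Neo2 and beside a wild-type allele had 0% called and 1 of 9, Met (0.82, SE 0.31, adjusted p = 0.772), against 6.21%, where the first +/- array enters with its Met signal of 6.00.

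**Figure D3:**
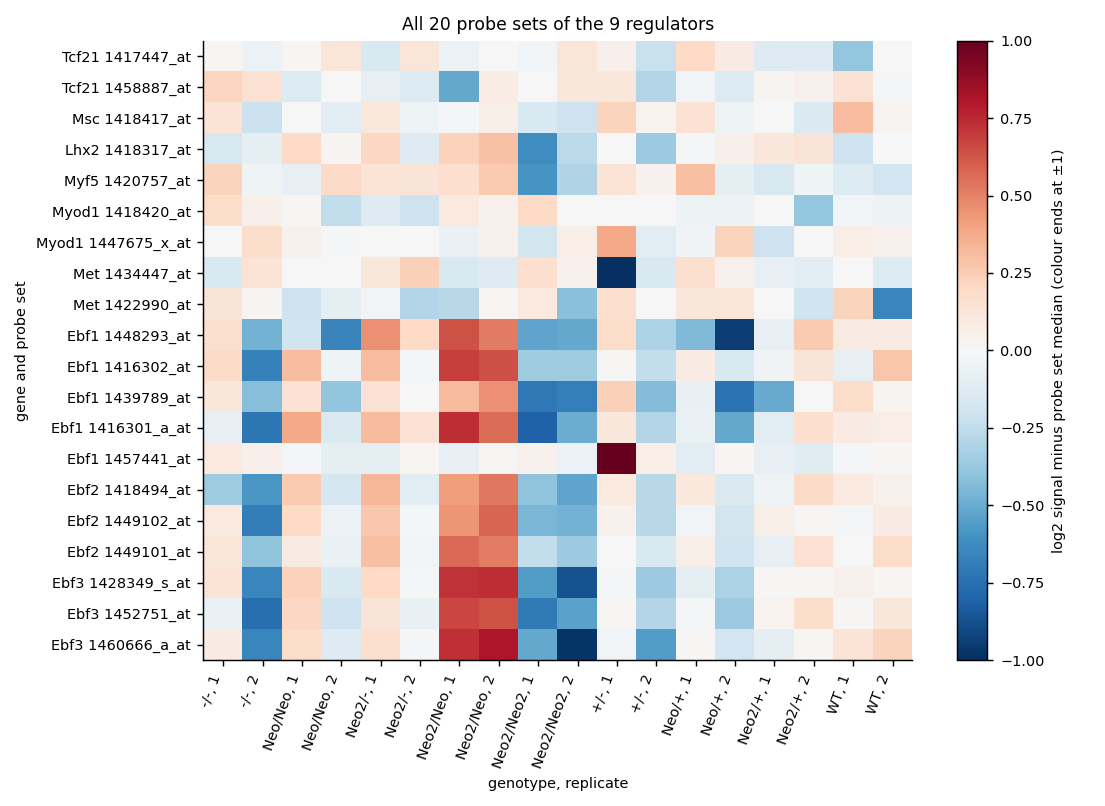
All 20 probe sets of the 9 genes (rows) in the 18 embryos (columns, -/- to WT), as log2 signal minus the median of the probe set over the 18 arrays, with colours ending at ±1. The 2 Neo2/Neo columns are red and the 2 Neo2/Neo2 columns blue in 10 of the 11 Ebf probe sets, and the Tcf21, Msc, Myod1 and Met rows show no such contrast.

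A contrast within the 9 genes lay between Neo2/Neo and Neo2/Neo2, which differ in 1 allele. It was noticed in these values, so it is given as a description. Neo2/Neo exceeded Neo2/Neo2 by 1.45 for Ebf3 (2.73-fold), 1.10 for Ebf1 (2.14-fold), 0.93 for Ebf2 (1.91-fold), 0.70 for Lhx2 (1.63-fold) and 0.66 for Myf5 (1.58-fold). The differences were 0.20 for Msc, -0.03 for Myod1, -0.07 for Tcf21 and -0.25 for Met. Both Neo2/Neo arrays were above all 16 others in 11 of the 20 probe sets, namely 10 of the 11 of Ebf genes and that of Lhx2, against 2.33% of all probe sets. Both Neo2/Neo2 arrays were below the 16 others in 1 of the 20, Myf5, against 1.55%, and Neo2/Neo was above Neo2/Neo2 in 13 of the 20, against 25.2%. Probe sets of 1 gene are repeat readings of it, and the Ebf genes also went together, so these counts are not of independent members. At the brightest probe set of each gene the 3 counts were, in that order, 4, 1 and 6 of the 9 genes.

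Genes of newly formed neurons moved with this contrast. The early neuron list held 12 genes (Tubb3, Dcx, Elavl3, Elavl4, Stmn2, Nhlh1, Neurod1, Neurod4, Neurog1, Neurog2, Ina and Nefm), all measured, and no gene of it was at the bottom of the scale: the lowest value on any array was 5.15, for Neurog2. In 9 of the 12 both Neo2/Neo arrays were above all 16 others, against 2.33% of all probe sets. In 12 of 12 Neo2/Neo was above Neo2/Neo2, against 25.2%. The log2 of the summed signal of the list was 11.09 to 12.23 in -/-, 11.96 to 12.52 in Neo/Neo, 11.90 to 12.64 in Neo2/-, 12.91 to 12.98 in Neo2/Neo, 11.03 to 11.12 in Neo2/Neo2, 11.54 to 11.77 in +/-, 11.41 to 12.07 in Neo/+, 12.03 to 12.26 in Neo2/+ and 12.16 to 12.29 in WT embryos. The liver bud list, 6 genes including Afp, Alb and Ttr, also had Neo2/Neo highest in 3 of 6 genes, against 2.33% of all probe sets. Its mean deviation was 0.78 to 0.79 in Neo2/Neo and -0.72 to -0.29 in Neo2/Neo2 embryos. Each list of other genes had 0 or 1 such gene. Embryos of 1 genotype could also differ: the -/- embryos had mean deviations of 0.20 and -0.79 for the neuron list and 0.18 and -0.36 for the liver bud list. WT embryos lay closer, at 0.12 and 0.27 and at -0.08 and 0.16. Whether the contrast follows the genotype or single embryos was not tested.

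The 9 genes were then set against the early neuron score, the mean deviation of the 12 neuron genes on each array, in a comparison chosen after these values were seen. It ran from -0.85 in the first Neo2/Neo2 embryo to 0.91 in the second Neo2/Neo embryo, and it was 0.20 and -0.79 in the 2 -/- embryos. The slope was 0.73 for Ebf3 (SE 0.07, adjusted p = 5.22e-07), 0.53 for Ebf2 (SE 0.07, adjusted p = 5.38e-05), 0.65 for Ebf1 (SE 0.12, adjusted p = 0.00184) and 0.33 for Lhx2 (SE 0.07, adjusted p = 0.00544), so 4 of the 9 genes were called, against 8.75% of all probe sets. Myf5 had 0.23 (adjusted p = 0.0931), and the slopes of Msc (0.11), Met (-0.03), Myod1 (-0.04) and Tcf21 (-0.04) were not called.

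Between embryos of 1 genotype, with genotype means as further terms, 0 of the 9 genes were called on the neuron score, with 0.291% of probe sets called. The slopes were 0.65 for Ebf1 (95% interval 0.35 to 0.96, adjusted p = 0.103), 0.56 for Ebf3 (0.25 to 0.87, adjusted p = 0.167), 0.45 for Ebf2 (0.17 to 0.73, adjusted p = 0.229) and 0.14 for Lhx2 (-0.18 to 0.46, adjusted p = 0.809). At the second brightest Ebf1 probe set the slope was 0.68 and was called (adjusted p = 0.0413). With the score as a covariate the slope of Ebf2 on the Tbx1 signal was 0.14 and that of Ebf1 0.12, neither called. The part of the neuron genes in the differences between genotypes was not tested.

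**Figure D4:**
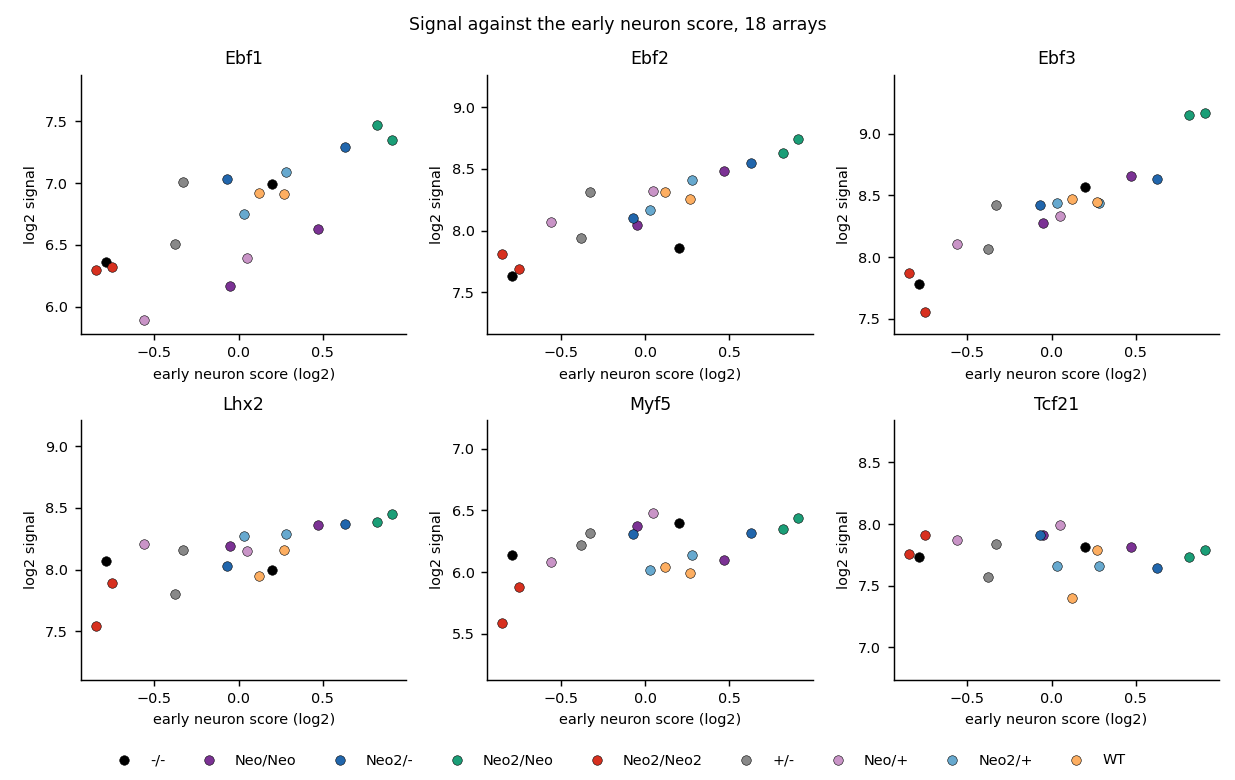
Log2 signal of Ebf1, Ebf2, Ebf3, Lhx2, Myf5 and Tcf21 (vertical) against the early neuron score in log2 units (horizontal) in the 18 embryos, coloured by genotype. Ebf2 and Ebf3 climb along the score from the Neo2/Neo2 embryos on the left to the Neo2/Neo embryos on the right, the Neo/+ and Neo/Neo embryos lie low in the Ebf1 panel, and Tcf21 is level.

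The probe sets of Ebf2 and of Ebf3 followed each other closely over the 18 arrays (r = 0.90 and 0.88 with the brightest of Ebf2, 0.95 and 0.98 with that of Ebf3). Those of Ebf1 did so less, at 0.85, 0.82 and 0.74, and the dimmest, at 3.68 to 3.90 on 17 arrays and 6.16 on the first +/- array, at 0.13. The 4 brighter Ebf1 probe sets split by genotype. The brightest minus the second brightest was -0.52 to -0.23 in the 4 Neo/Neo and Neo/+ arrays, against 0.09 to 0.49 in the 14 others, and the groups did not overlap. The same held for its differences from the next 2 in brightness, at 0.15 to 0.31 against 0.42 to 0.95 and at 0.06 to 0.26 against 0.54 to 0.91.

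A split of these 4 arrays from the 14 others was found in 3 of the 4 Ebf1 pairs and in 0.698% of 16752 pairs of a brightest and another probe set of 1 gene. The 3 Ebf1 pairs share the brightest probe set, so they are not independent of each other. No such split was seen among the Ebf1 probe sets other than the brightest, whose differences overlapped, nor in Ebf2 or Ebf3. The Neo2/Neo arrays, which also hold a Neo allele, lay with the others. The level of Ebf1 in these genotypes thus differed by probe set. The second brightest had 6.86 and 6.51 in Neo/Neo and 6.64 and 6.40 in Neo/+, against 6.47 and 6.83 in WT embryos, and the groups overlapped. At the next 2 in brightness both Neo/+ embryos were below both WT embryos, at 6.24 and 5.58 in Neo/+ against 6.50 and 6.34 in WT (difference -0.51, adjusted p = 0.741) and at 6.13 and 5.68 in Neo/+ against 6.28 and 6.26 in WT (difference -0.37, adjusted p = 0.798). The split was noticed after the values were seen, and its cause was not tested.

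**Figure D5:**
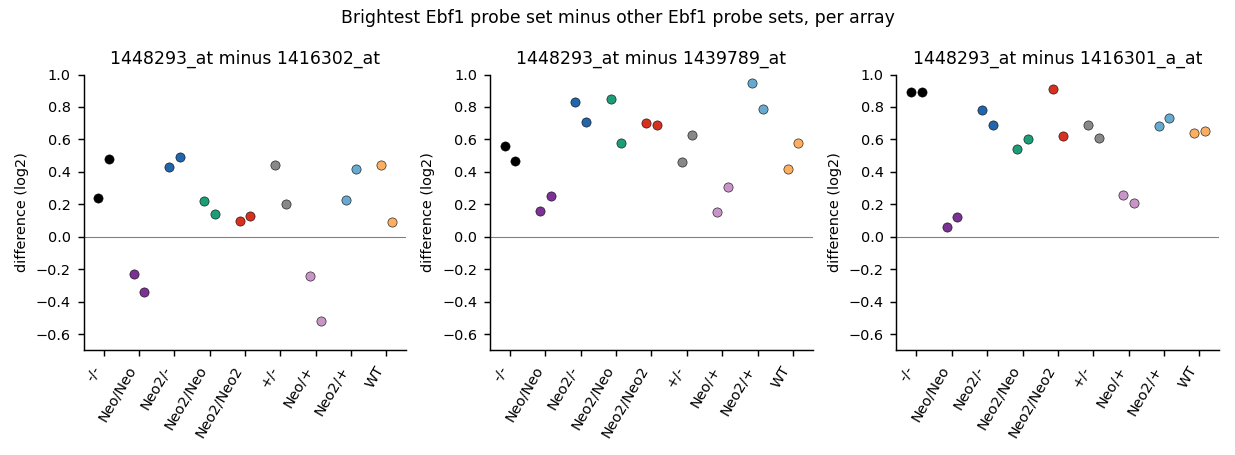
Difference in log2 signal between the brightest Ebf1 probe set and the next 3 in brightness (left to right) on each of the 18 arrays, by genotype. In each panel the 4 Neo/Neo and Neo/+ arrays lie below the other 14.

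Over the 18 arrays the 9 genes fell into genes that went together and genes that did not, given here as Pearson correlations of arrays that share genotypes. They were 0.88 for Ebf2 and Ebf3, 0.78 for Ebf1 and Ebf3, 0.68 for Ebf1 and Ebf2, 0.76 for Lhx2 and Ebf2, 0.71 for Lhx2 and Ebf3 and 0.58 for Lhx2 and Myf5. Those of Ebf1 used its brightest probe set alone. Tcf21 and Msc, partners in jaw muscle precursors, had -0.31. With Tbx1 the values ran from -0.51 for Myf5 to 0.11 for Msc.

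The genes most like each of the 9 over the 18 arrays were named by the highest correlation. For Ebf3 they were Nsg1 (0.974), the zinc finger factor gene Bcl11b (0.969) and the ephrin receptor gene Epha3 (0.968), and for Ebf2 they were Limch1 and Xpr1 (0.958 each) and Frmd4a (0.948). Ebf1 was most like Tbc1d9 (0.928), the histone gene H2bc21 (0.898) and Pgpep1 (0.881). That likeness is of its brightest probe set, which departed from other Ebf1 probe sets in the Neo/Neo and Neo/+ arrays. Met was most like Galnt7 (0.940), Dock9 (0.939) and Ahctf1 (0.936), a likeness that includes the first +/- array, and Lhx2 was most like Atat1 (0.876), Ankle2 (0.854) and Chst15 (0.849). The closest genes were at 0.879 for Tcf21 (BC029722, then Trappc6a at 0.865 and Epdr1 at 0.855), 0.836 for Myf5 (Fam241b, then Hdgfl3 at 0.816 and Snx15 at 0.810), 0.809 for Msc (Abcg4, then Slc7a11 at 0.792 and Tmem71 at 0.770) and 0.801 for Myod1 (Naip6, then Kazald1 at 0.795 and Samd9l at 0.792).

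The wider pathway gave no calls on the Tbx1 signal or in Neo/Neo and -/- against carriers of a wild-type allele. Of 12 other regulators of cranial and pharyngeal mesoderm, 9 were measured by a probe set of a single symbol and 0 were called in either direction; the median slope on Tbx1 was 0.05, against 0.01 for all probe sets. The smallest p-values belonged to Dach1 (slope -0.16, adjusted p = 0.566), Six4 (0.09, adjusted p = 0.582) and Eya1 (0.05, adjusted p = 0.707), transcriptional regulators that act together in cranial muscle and placodes. Eya1 in Neo/Neo and -/- against the carriers had -0.13 (SE 0.06, adjusted p = 0.606).

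Muscle differentiation genes, which act after Myf5 and Myod1, had 0 of 10 called, with a median slope of -0.01. The fast muscle genes Mylpf (slope -0.36, SE 0.16) and Tnnc2 (-0.35, SE 0.16) had an unadjusted p under 0.05 and adjusted p-values of 0.563, and the heart and muscle actin Actc1 had 0.12. Their summed log2 signal was 12.11 to 12.92 in the Neo/Neo and -/- embryos, against 12.38 to 12.69 in the carriers, so the groups overlapped. That sum mostly reflects Actc1, with a median of 12.30 against 9.05 for Acta1, the next highest. The mean deviation of the list, which weights its genes equally, was -0.13 to 0.28 against -0.08 to 0.10. The first -/- embryo had the lowest sum, 12.11, and the highest mean deviation, 0.28. The somite and limb muscle progenitor list had 0 of 8 called. In that list Pax3, which drives trunk and limb muscle precursors, had -0.27 in Neo/Neo and -/- against the carriers (SE 0.11, adjusted p = 0.595), with Tcf15 at 0.08 and Dmrt2 at 0.09, and Meox2 and Sim1 had slopes of -0.08 each.

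Genes that act with Met had 0 of 5 called, among them its ligand Hgf (slope -0.08), its adaptor Gab1 (0.07) and the chemokine receptor Cxcr4 (-0.12), and Cxcl12, the ligand of Cxcr4, had -0.15 in Neo/Neo and -/- against the carriers (SE 0.06, adjusted p = 0.589). Lists of the other tissues that use these genes had no call either. The forebrain and optic vesicle list had 0 of 7 measured genes called (Emx2 slope -0.17, Six6 0.33 and Otx2 0.08), and its summed log2 signal was 9.91 to 9.94 in Neo2/Neo and 10.14 to 10.24 in Neo2/Neo2 embryos, opposite in order to Lhx2. The proepicardium and visceral mesoderm list had 0 of 6 (Wt1 -0.16, Tbx18 -0.11 and Osr1 -0.09, with Foxf1 at 0.09 in the comparison with the carriers).

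The liver bud list had 0 of 6 called, with Ttr at -0.69, Alb at -0.52 and Afp at -0.71 per unit of Tbx1 and Prox1 at -0.25 in the comparison with the carriers. The cranial neural crest list had 0 of 7 called (Dlx2 0.23, Sox10 0.18 and Tfap2b -0.10). The early neuron list had 0 of 12 called on the Tbx1 slope, with Stmn2 at -0.56, Neurod4 at -0.24 and Neurog2 at -0.45 and a median of -0.27, and Neurod1 had -0.29 in Neo/Neo and -/- against the carriers. Against WT, Neo2/Neo had 4 of the 12 neuron genes with an unadjusted p under 0.05, against 6.72% of probe sets, and a median of 0.66. Neo2/Neo2 had 9 of 12, against 11.6%, and a median of -1.01, with 0 called in both.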

How the data were processed

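Total RNA of single whole embryos was hybridised to Affymetrix mouse expression arrays; the 2 embryos of a genotype are biological replicates, per the labels. The deposited values are log2 probe set signals, for which the submitters' processing notes name RMA and affy without versions. They were used without rescaling or filter. The annotation gave 1 symbol to 34945 probe sets (18193 genes), several to 932 and none to 9160, and only probe sets with 1 symbol were named. All 9 genes matched RefSeq GRCm38.p6 by gene ID, which was used for names and for the promoter sequences.

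limma 3.58.1 in R 4.3.3 fitted 9 genotype means (9 residual degrees of freedom, 3.63 from the prior) and, separately, a slope on the Tbx1 signal (16 residual degrees of freedom), with eBayes and two-sided tests. P-values were adjusted by Benjamini-Hochberg over all probe sets, and a call is an adjusted p under 0.05. The fit was tested on simulated data. The value of a gene is its probe set with the highest mean. Named genes were the 9 and Tbx1, the 3 genes most like each of the 9, and up to 3 genes per list with the smallest p on the Tbx1 slope or in Neo/Neo and -/- against carriers. The 9 genes and the lists were chosen with earlier results of these data known. For a list score, each gene was centred on its mean over the 18 arrays and the genes were averaged per array. Sex was read from Xist and Y-linked genes (9 female, 9 male). RMA values carry no detection call, and 2 embryos per genotype limit the precision of every value. Alternatives left out single arrays or both arrays that stood apart, or added embryo sex, the early neuron score, replicate number, array weights, a variance trend, a dim probe set limit of 5, centred arrays or the second probe set.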

Additional observations from a re-analysis of the deposited data

Results flagged for a closer look

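Values that lay far from the others of their group were looked for in 63 combinations of a probe set, that of Tbx1 included, and a group of 4, 6 or 8 embryos. Of these 3 were found, all among the 8 carriers of a wild-type allele. The measure was the gap to the nearest other value over the range of the group. Chance gives about 1 in 20 groups, and 3 of 63 is near that share. Myod1 was at 4.64 in the second Neo2/+ embryo, where the nearest other carrier had 4.98. Met was at 6.00 in the first +/- embryo, with the nearest other carrier at 6.96. The dimmest Ebf1 probe set was at 6.16 in the same embryo, with the nearest other carrier at 3.87, while the brightest Ebf1 probe set of that embryo had 7.01, inside the range of 5.89 to 7.09 of the carriers. The first +/- array is 1 of the 2 that stood apart from the rest.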

How the results depend on the processing

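The slope on the Tbx1 signal called 0 of the 9 genes in every alternative run on that signal. Leaving out single arrays gave 0 to 4 called genes in the test of any difference between genotypes, 0 to 1 in Neo/Neo and -/- against carriers of a wild-type allele, with 0 against 1 or 2 wild-type alleles, in +/- against WT and in the effect of the null allele by partner, and 0 in the other comparisons. The 4 were Met, Ebf1, Ebf2 and Ebf3 without the second +/- embryo, where the 1 in each other comparison was Met; that fit called 10.6% of all probe sets in the test of any difference and 4.43%, 6.36%, 11.2% and 7.58% in those comparisons, and it rests on the lone +/- array that stood apart, assumed to vary like the other genotypes. Without both arrays that stood apart, 2 genes (Ebf1 and Ebf3) were called in the test of any difference, with 2.77% of all probe sets, and 1 (Ebf3) in Neo2/Neo2 against WT, with 2.02%, and array weights gave 2 in the test of any difference, with 2.96%. The slope on the early neuron score in place of Tbx1, chosen after seeing the data, called 4, with 8.75%. Signs of uncalled values changed as follows. Slopes on Tbx1 within genotype were 0.66 for Tcf21, -0.03 for Msc, 0.29 for Lhx2, 0.20 for Myf5 and 0.06 for Ebf1. Without genotype terms those slopes were -0.04, 0.03, -0.12, -0.19 and -0.07. Within genotypes the Tbx1 signal differed most between the +/- embryos, at 6.61 and 6.13, and the first of these arrays stood apart. The Tcf21 slope was 0.02 at its second probe set, and the Met difference in Neo/Neo and -/- against carriers was -0.01 at its second probe set. The Myod1 slope was 0.01 without both arrays that stood apart, 0.02 with array weights and 0.03 without the 2 arrays farthest in Tbx1. With the early neuron score as a covariate the slopes were 0.12 for Ebf1 and 0.14 for Ebf2, and without the Neo2/Neo2 arrays 0.03 and 0.09. Ebf3 in Neo/Neo and -/- against carriers was 0.01 with centred arrays. Leaving out single arrays, slopes ranged from -0.01 to 0.06 for Msc, -0.06 to 0.01 for Myod1, -0.14 to 0.00 for Met and -0.10 to 0.04 for Ebf2, and differences in Neo/Neo and -/- against carriers from -0.01 to 0.08 for Lhx2, -0.30 to 0.01 for Ebf1 and -0.22 to 0.18 for Ebf3. Met in that comparison was called at 0.29 (adjusted p = 0.0321) without the second +/- embryo, where 4.43% of all probe sets were called. The cause of these shifts was not tested. The replicate block (replicate number as a covariate) left 0 genes called in each comparison; the numbers did not pair the embryos, with correlations of deviations between -0.26 and 0.19 over 36 pairs of genotypes, 9 of them over 0.1. Embryo sex as a covariate, a variance trend, leaving out dim probe sets and centred arrays also gave 0 called genes throughout.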
